A study of Mus musculus with 6 samples.

Results

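Genes of DNA replication and S phase were examined in mouse epidermal keratinocytes after loss of Lama3, the gene for the alpha chain of the main laminin of the epidermal basement membrane. The set comprised 36 named genes of origin licensing, the replication fork and the supply of DNA building blocks, each found by its symbol among the 45513 identifiers of the gene count table. Every group of mice was on a C57BL/6 background. The 3 knockout mice were Lama3flox/flox with K14-CreERT, a Cre recombinase that the keratin 14 promoter drives in basal keratinocytes and that acts when tamoxifen is given. The 3 control mice were Lama3wt/flox with K14-CreERT by the design text, whereas their genotype label reads wild type. Exons 50 to 53 of Lama3 lie between the loxP sites, and tamoxifen was given in chow at 400 mg per kg. The design text describes the chow without listing which animals ate it, and age and time after tamoxifen are not given in the sources used here. RNA came from keratinocytes isolated from the skin, 1 library per mouse, read as paired 100-base reads.

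Before S phase, the origin recognition complex, Cdc6 and Cdt1 load the Mcm2-7 helicase onto origins, a step called licensing. Cdc45, the GINS complex and Mcm10 then turn the loaded helicase into a moving fork, where primase and the polymerases copy DNA, the clamp Pcna holds them in place and a separate set of enzymes makes the nucleotides. Many of these genes are transcribed under E2F factors as cells pass from G1 into S phase. In the epidermis, dividing cells sit mainly in the basal layer and in the growing hair follicle.

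Each library held between 20126395 and 28473479 counts, and the 36 genes held between 20 and 3192 counts per gene and library. Levels are CPM, counts relative to the scaled size of their library. A difference is the log2 fold change of the knockouts against the controls, given with its standard error (SE). The verbs fell and rose are kept for genes whose p in the quasi-likelihood test of edgeR, adjusted by Benjamini and Hochberg's method for the 15513 genes tested, was under 0.05. By that rule 2919 genes fell (18.8%) and 2693 rose (17.4%). Of these called genes 48.0% were higher, against 30.6% under upper-quartile scaling. The median difference of all genes was -0.02 on the log2 scale. Lama3 stood at 141, 142 and 115 CPM in controls 1 to 3 and at 97.3, 98.9 and 79.2 CPM in knockouts 1 to 3. Its difference was -0.53 (SE 0.14, adjusted p = 0.0215), and the adjusted p was 0.062 without control 1, 0.0584 without control 2 and 0.0551 without knockout 1. The Xist and Ddx3y counts were those of a female in control 1 and knockouts 1 and 2, and of a male in the other libraries.

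All 36 replication genes passed the filter on low counts. Of these, 23 fell, none rose and 13 did not pass the test, so that 63.9% fell against 18.8% of all genes tested. At an unadjusted p under 0.05 the counts were 26 lower and 0 higher. DESeq2 found 25 lower and 0 higher, and limma-voom 23 lower and 0 higher. The median difference of the 36 genes was -0.74, beside -0.02 for all genes, and 35 of them had a difference below 0. The count depended on single libraries: 14 genes fell without control 3, 16 without control 2 and 16 without knockout 2. With sex as a covariate 20 fell, the calls of Orc1, Mcm10 and Gins1 being lost.

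The summed level of the 36 genes was 975, 1025 and 1064 CPM in controls 1 to 3. In knockouts 1 to 3 it was 724, 596 and 628 CPM, and the knockout mean came to 63.6% of the control mean. The knockout libraries thus lay below the control libraries in the sum. For 26 of the 36 genes every knockout library lay below every control library, against 26.5% of all genes tested. The knockouts were not alike: knockout 1 was the highest of the 3 for 24 genes, while knockout 2 was the lowest for 17 and knockout 3 for 15. Among the controls, control 1 was the lowest for 25 genes. Across the 36 genes, the control level per kilobase of exon and the difference between groups had a Spearman rho of 0.06, and exon length and the difference one of 0.02. Both are descriptions over genes that share the same 6 libraries.

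**Figure D1:**
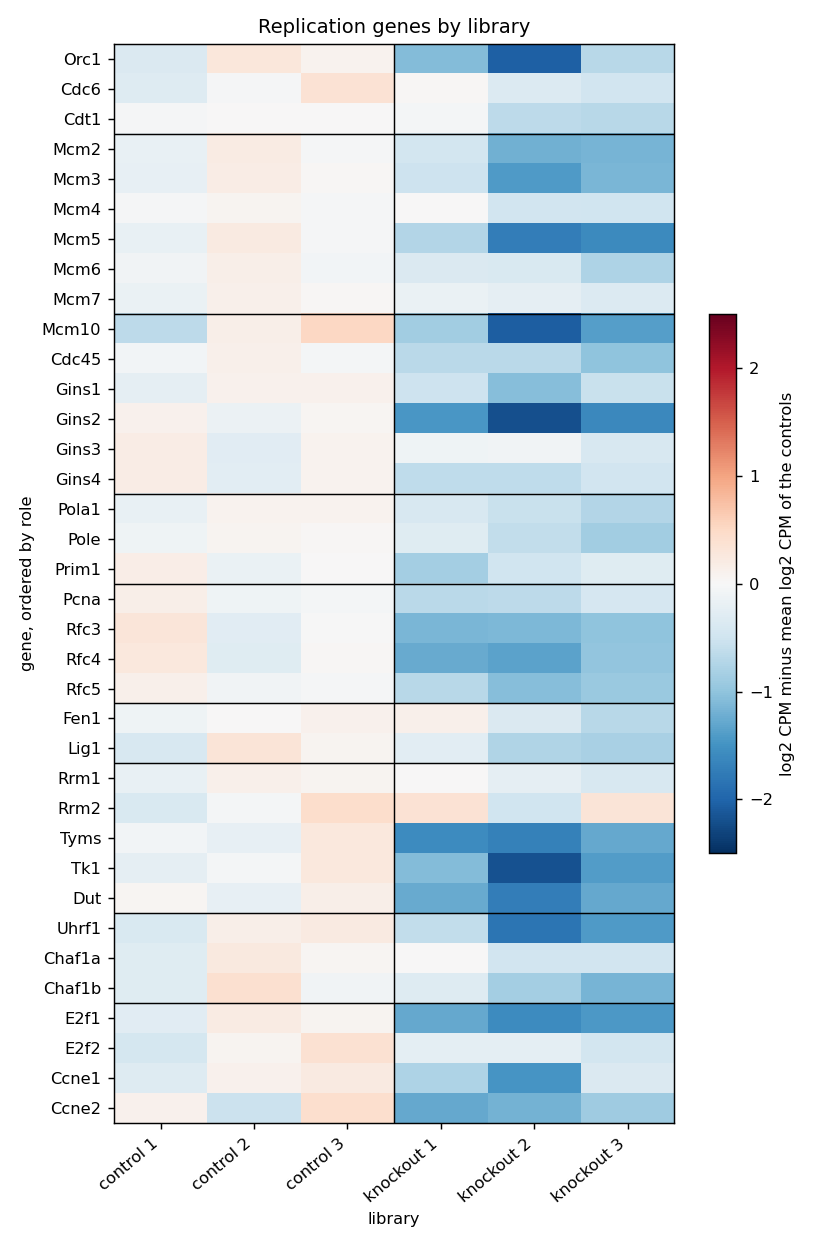
Level of each of the 36 replication genes (rows, ordered by role, with lines between roles) in each library (columns). Colour gives log2 CPM minus the mean log2 CPM of the controls for that gene. The knockout columns are mostly blue, palest in knockout 1. In Rrm2, knockouts 1 and 3 lie above the control mean, and in some other rows, such as Fen1, knockout 1 does.

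Other cell types also differed between the libraries. The calls of their markers stand beside 18.8% of all genes tested that fell and 17.4% that rose. Markers of hair matrix, shaft and inner root sheath summed to between 382 and 597 CPM in controls and between 192 and 262 CPM in knockouts. Of 13 tested, 10 fell and 1 rose, and Krt35, Krt81 and Shh were at 0 in some library. Gata3, which was not called, held much of these sums, with means of 229 CPM in controls and 173 CPM in knockouts. The differences of the 10 that fell ran from -1.32 for Msx2 to -8.16 for Krt35. Krt71, for example, went from a mean of 54.8 CPM to 0.478 CPM. T cell markers summed to between 157 and 314 CPM in controls and between 69.9 and 84.2 CPM in knockouts, 8 of 9 tested having fallen and Ptprcap being at 0 in every library. Sebocyte markers (7 of 9 fell, 1478 to 1836 CPM against 574 to 1011 CPM) and melanocyte markers (5 of 6 fell, 81.1 to 210.0 CPM against 53.5 to 59.1 CPM) were lower too, and none of them was at 0 in any library. Scd1 and Mitf, neither of them called, made up most of these respective sums in each knockout library. The differences of the genes that fell were -1.19 to -3.55 for sebocytes and -2.285 to -3.93 for melanocytes. Red blood cell markers went from between 13.3 and 23.2 CPM to between 1.82 and 3.00 CPM (4 of 5 fell, Hba-a2 at 0 in some library). Spinous and granular keratinocyte markers went the other way, from between 11730 and 15480 CPM to between 27900 and 44500 CPM, with 7 of 9 tested having risen and Flg at 0 in some library. The 7 neutrophil markers summed to between 7.75 and 35.9 CPM in controls and between 154 and 1512 CPM in knockouts. Of these, S100a8, S100a9 and Cxcr2 rose. The other 4 were too low to be tested, with Ly6g at 0 in every library and Csf3r, Mpo and Ltf at 0 to 6 counts. Basal keratinocyte markers overlapped between the groups, at 16980 to 23400 CPM in controls and 16180 to 22010 CPM in knockouts. Of the 9 tested, 1 fell and 2 rose. The sums of outer sheath and follicle stem cell markers overlapped too, at 408 to 628.5 CPM in controls and 419 to 736 CPM in knockouts (2 of 7 rose, 0 fell). So did those of Langerhans cell (1 fell, 1 rose), macrophage (3 rose), fibroblast (2 fell) and muscle markers (0 called). Endothelial markers were lower, at 3.24 to 4.835 CPM against 1.61 to 2.34 CPM, and neither of the 2 tested passed. The part of these cell types in the lower replication genes was not tested. In such bulk RNA, fewer cycling cells and less RNA of these genes per cell cannot be told apart.

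The promoters were read for 30 of the 36 genes from RefSeq (GRCm38.p6), from 250 bases before to 50 after the start site. Gins1, Gins2, Gins4, Mcm4, Pole and Ccne2 had no entry. The E2F octamers TTTCCCGC, TTTGGCGC, TTTCGCGC and TTTGCCGC, searched on both strands, occurred in promoters of 13 of the 30 genes (43.3%). The share was 4.48% of the 11014 tested genes with an entry and 2.60% of all 27025 genes with an entry. The stretches of 160 bases before the start are shown for Mcm5, Mcm6, Pola1 and Tyms. The first 3 are the genes that fell, carry an octamer in this stretch and have a stretch outside their own annotated gene. Overlap of the stretches with other genes was not examined. Tyms is one of the genes that fell most and has no octamer. Capitals mark the octamers. The stretches are chr8:75109349-75109508 (plus strand) for Mcm5, chr1:128359706-128359865 (minus strand) for Mcm6, chrX:93632156-93632315 (minus strand) for Pola1 and chr5:30073626-30073785 (minus strand) for Tyms, each written 5′ to 3′ in the direction of the gene.
Mcm5: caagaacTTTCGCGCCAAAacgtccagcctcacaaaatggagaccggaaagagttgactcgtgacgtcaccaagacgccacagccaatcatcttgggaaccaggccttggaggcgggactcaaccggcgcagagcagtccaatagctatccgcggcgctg
Mcm6: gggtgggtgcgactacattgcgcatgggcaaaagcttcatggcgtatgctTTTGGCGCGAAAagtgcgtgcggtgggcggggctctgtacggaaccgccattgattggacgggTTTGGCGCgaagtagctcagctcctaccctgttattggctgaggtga
Pola1: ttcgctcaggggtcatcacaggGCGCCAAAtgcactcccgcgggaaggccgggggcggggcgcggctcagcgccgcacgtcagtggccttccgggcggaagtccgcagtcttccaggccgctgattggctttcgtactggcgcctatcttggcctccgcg
Tyms: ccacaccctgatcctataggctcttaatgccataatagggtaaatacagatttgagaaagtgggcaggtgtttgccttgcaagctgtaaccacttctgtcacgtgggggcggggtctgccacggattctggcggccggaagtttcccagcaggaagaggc

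In Mcm5 the octamer TTTCGCGC at 153 bases before the start overlaps TTTGGCGC of the other strand at 149 bases. Mcm6 carries such an overlapping pair at 110 and 106 bases and a further TTTGGCGC at 47 bases before the start. In Pola1 the match, TTTGGCGC on the other strand, lies 138 bases before it. A match describes letters and not a bound site. The 13 genes with an octamer included 7 that fell and had a median difference of -0.57. The 17 without one included 11 that fell and had a median of -0.82, and the 6 without an entry included 5 that fell, with a median of -0.65. The median was thus not lower in the genes with an octamer. The comparison holds only for the start sites used. The 160 bases before the start lay wholly inside the gene's own annotated span for E2f1 and Dut, which had no octamer. The same was true of Cdc6 and Mcm7, which had one.

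Of the 25 listed mitosis genes 22 had an entry, and 4.55% of these held an E2F octamer in a promoter. The cell cycle homology region was searched on both strands as TTTGAA or TTCGAA. It occurred in 77.3% of the 22 mitosis genes, 23.3% of the 30 replication genes and 16.6% of the tested genes. The CCAAT box, likewise searched on both strands, occurred in 60.0% of the replication genes, 77.3% of the mitosis genes and 42.4% of the tested genes. A shorter window ran from 150 bases before to 50 after the start. There 12 of the 30 replication genes held an E2F octamer, 16 (53.3%) CCAAT and 5 (16.7%) the homology region. The shares of the tested genes in that window were 3.23%, 34.4% and 9.71%. The base composition of the promoters was not matched between these sets.

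**Figure D2:**
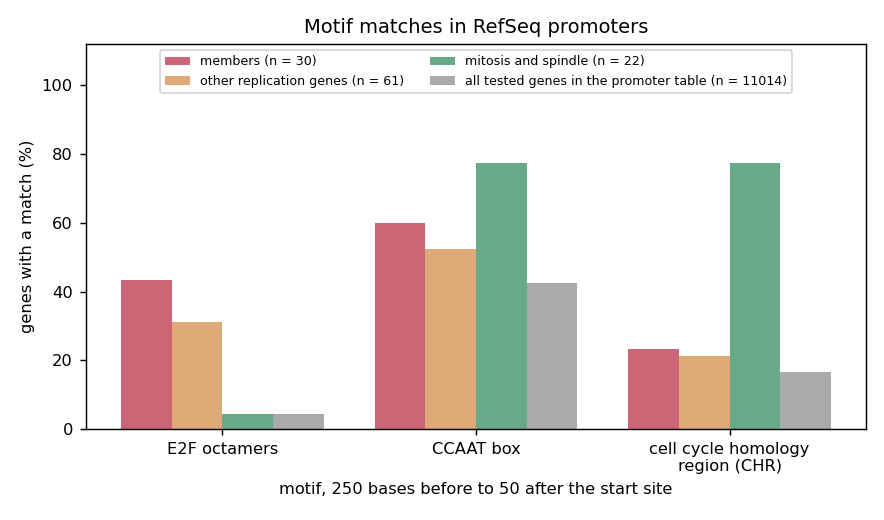
Share of genes (vertical axis, %) with a promoter match to each of 3 motifs, from 250 bases before to 50 after the start site. Bars stand for the 30 replication genes with an entry, 61 other replication genes, 22 mitosis genes and 11014 tested genes. The E2F octamers are at 43.3% in the replication genes and 4.55% in the mitosis genes, and the homology region at 23.3% and 77.3%.

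Of the licensing factors, 1 of 3 fell. Orc1, the subunit of the origin recognition complex that is made anew in each cycle, was at 2.24, 3.48 and 3.03 CPM in the controls and at 1.35, 0.698 and 1.78 CPM in the knockouts. The groups did not overlap, and knockout 2, with 20 counts, was the lowest. The difference was -1.19 (SE 0.38, adjusted p = 0.0401), and omitting any one of controls 1, 2 and 3 or knockouts 1 and 2 ended the call (adjusted p from 0.0531 to 0.105). Cdt1, which brings the helicase to the origin, was steady in the controls at 11.02, 11.34 and 11.24 CPM. In the knockouts it was at 10.8, 7.12 and 6.93 CPM, so that knockout 1 lay just under the controls. Its difference of -0.44 did not pass the test (adjusted p = 0.124), but did without knockout 1 (adjusted p = 0.0364). Cdc6, the other loader, had overlapping groups, at 4.18 to 6.72 CPM against 3.78 to 5.37 CPM, and a difference of -0.28 (adjusted p = 0.407).

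In the Mcm2-7 helicase core, 4 of 6 genes fell. Mcm5 had the largest difference, from 32.6, 42.9 and 36.1 CPM in the controls to 22.2, 11.1 and 12.2 CPM in the knockouts (-1.30, SE 0.26, adjusted p = 0.00947). Mcm2 went from 30.6, 40.1 and 34.2 CPM to 25.2, 15.1 and 15.6 CPM (-0.91, SE 0.22, adjusted p = 0.0157). Both genes kept the knockouts below every control, with knockout 1 well above the other two. Mcm3 fell likewise, from 26.4, 34.4 and 31.0 CPM to 21.2, 11.5 and 13.7 CPM (-0.99, SE 0.23, adjusted p = 0.0152). Mcm6 fell less, from 69.9, 83.3 and 71.7 CPM to 58.1, 57.2 and 43.6 CPM (-0.50, SE 0.14, adjusted p = 0.0280). Omitting control 2, control 3, knockout 1 or knockout 3 ended its call (adjusted p from 0.0523 to 0.0798).

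Mcm4 and Mcm7, partners in the same ring, did not pass the test. Mcm4 was at 45.0, 48.2 and 45.0 CPM in the controls and at 46.3, 33.0 and 32.6 CPM in the knockouts, knockout 1 lying among the controls. Its difference was -0.31 (adjusted p = 0.150), and -0.24 for Mcm7 (adjusted p = 0.134). Mcm4 passed without knockout 1 (adjusted p = 0.0329), and both passed under upper-quartile scaling (adjusted p = 0.0439 and 0.0282). Exons of Mcm7 share 557 bases with other annotated genes, Cops6 and Ap4m1 among them, neither of which passed the test. Per kilobase of annotated exon, Mcm2 was the lowest of the 6 in every library. The highest of the 6 exceeded it 3.09 to 3.41 times in controls and 3.57 to 5.64 times in knockouts. On this scale the levels of the subunits were thus further apart in each knockout library than in each control library. The length used is the union of all annotated exons, 6956 bases for Mcm2 and 3589 to 4666 for its partners. The order of the genes and these ratios depend on that length, and the transcripts in use were not examined.

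Of the 6 genes that activate the helicase, 5 fell. Gins2, a subunit of GINS (ENSMUSG00000031821, chromosome 8, 120578633 to 120589304, minus strand), had the largest fall of the 36 genes. It was at 22.1, 18.5 and 21.1 CPM in the controls and at 7.44, 4.50 and 6.72 CPM in the knockouts, which is 30.2% of the control mean. The difference was -1.73 (SE 0.21, adjusted p = 0.00175). Of its 4097 exon bases, 2758 overlap exons of Gse1 on the opposite strand, and the use of strand in counting is not given in the sources used here. Gse1 rose, by 0.69 (adjusted p = 0.0144), and reads of the 2 genes cannot be told apart where they overlap. The other GINS subunits moved less: Gins1 had a difference of -0.71 (adjusted p = 0.0377), Gins4 of -0.59 (adjusted p = 0.0162) and Gins3 of -0.21 (adjusted p = 0.433). Per kilobase, Gins4 was the highest subunit in every library, while the lowest was Gins3 in each control and Gins2 in each knockout. The length used for Gins2 includes the 2758 bases shared with Gse1. Its place in this order thus depends on whether reads in those bases were counted, which is not known. The call of Gins1 ended on omission of any one library other than control 1 (adjusted p from 0.053 to 0.112). That of Gins4 ended on omission of control 1, control 3, knockout 1 or knockout 2 (adjusted p from 0.0503 to 0.0595).

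Mcm10, which joins the helicase as it is activated, was scarce, at 2.67, 4.67 and 6.05 CPM in the controls and 2.33, 1.01 and 1.63 CPM in the knockouts. The lowest control lay just above the highest knockout. The difference was -1.44 (SE 0.40, adjusted p = 0.0270), and omission of control 2, control 3, knockout 2 or knockout 3 ended the call (adjusted p from 0.0574 to 0.0863). Cdc45, the helicase partner of GINS, was tighter: 9.69, 11.1 and 9.83 CPM in the controls against 6.34, 6.39 and 5.05 CPM in the knockouts. Its difference of -0.78 (SE 0.17, adjusted p = 0.0120) was called under each of the 14 alternatives. Cdc45 shares 209 exon bases with Ufd1 on the opposite strand, whose difference was 0.11 (adjusted p = 0.453).

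All 3 polymerase genes fell, by similar amounts. Pola1, the catalytic subunit of the primase-polymerase complex, was at 20.59 to 24.97 CPM in the controls and at 14.0 to 17.6 CPM in the knockouts, with a difference of -0.57 (SE 0.14, adjusted p = 0.0188). Prim1, the primase itself, was at 55.2, 44.2 and 49.6 CPM against 27.4, 35.2 and 39.9 CPM (-0.54, SE 0.16, adjusted p = 0.0320). Here knockout 1 was the lowest library, unlike for most of the set. Pole, the catalytic subunit of the leading-strand polymerase, was at 11.1 to 12.5 CPM against 6.53 to 9.68 CPM (-0.58, SE 0.18, adjusted p = 0.0392). None of these 3 calls survived every omission. Pola1 lost it without control 2, control 3 or knockout 2 (adjusted p from 0.0525 to 0.0657), and Prim1 without control 1, control 3, knockout 1 or knockout 2 (adjusted p from 0.0707 to 0.104). Pole lost it without any one library other than knockout 1 (adjusted p from 0.061 to 0.104).

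All 4 genes of the clamp and its loader fell, and each was called under all 14 alternatives. Pcna, the sliding clamp, was the most abundant of the 36 genes per kilobase in both groups. It was at 138, 116 and 121 CPM in the controls and at 78.5, 79.4 and 93.3 CPM in the knockouts (-0.58, SE 0.12, adjusted p = 0.0101). The loader subunits fell further, Rfc4 by 1.21, Rfc3 by 1.11 and Rfc5 by 0.89 on the log2 scale (adjusted p = 0.00364, 0.00323 and 0.00416). Rfc3 was at 37.25, 25.02 and 30.15 CPM in the controls and at 13.7, 14.0 and 15.1 CPM in the knockouts. Its knockouts were close to each other, and the spread lay among the controls. Rfc5 shares 499 exon bases with Wsb2, which rose by 0.67 (adjusted p = 0.00473). Rfc4 shares 194 of its 1533 exon bases with Eif4a2 on the opposite strand, which held 81172 counts over the 6 libraries against 2492 for Rfc4. The difference of Eif4a2 was -0.34 (adjusted p = 0.29).

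Neither gene of Okazaki fragment joining passed the test. Fen1, the flap endonuclease, was at 13.6 to 15.8 CPM in the controls and at 9.15 to 16.1 CPM in the knockouts, where knockout 1 was the highest of all libraries (-0.27, adjusted p = 0.339). Fen1 shares 2039 exon bases with other annotated genes, mainly Tmem258 by count, which fell by 0.76 (adjusted p = 0.00698). Lig1, the DNA ligase of replication, was at 20.7, 34.0 and 28.5 CPM against 22.5, 16.1 and 15.6 CPM (-0.62, adjusted p = 0.0574). Lig1 passed by DESeq2 (adjusted p = 0.0341), and in edgeR under upper-quartile scaling, with no filter on low counts, without control 1 (adjusted p = 0.0282) and without knockout 1 (adjusted p = 0.0464).

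The 5 genes of nucleotide supply split into 3 that fell and 2 that did not pass the test. Tyms, thymidylate synthase (ENSMUSG00000025747, chromosome 5, 30058202 to 30073617, minus strand), was at 32.3, 29.5 and 40.9 CPM in the controls and at 11.4, 10.5 and 13.9 CPM in the knockouts. Dut, which hydrolyses dUTP to the precursor that Tyms uses, was at 36.7, 30.7 and 39.0 CPM against 14.8, 10.7 and 14.5 CPM. Tk1, the thymidine kinase of the salvage route, was at 22.1, 24.6 and 30.9 CPM against 12.1, 5.69 and 9.73 CPM. In all 3 the highest knockout stood far below the lowest control. The knockout means were 34.9%, 37.6% and 35.4% of the control means. The differences were -1.52 for Tyms (SE 0.17, adjusted p = 0.00155), -1.41 for Dut (SE 0.17, adjusted p = 0.00172) and -1.50 for Tk1 (SE 0.27, adjusted p = 0.00680). Each of the 3 was called under all 14 alternatives.

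The 2 subunits of ribonucleotide reductase, the enzyme that makes deoxyribonucleotides, stood apart from these. Rrm1, the large subunit, was at 66.4, 82.8 and 79.0 CPM in the controls and at 76.6, 65.2 and 57.5 CPM in the knockouts (-0.20, SE 0.14, adjusted p = 0.303). Rrm2, the small subunit made in S phase, was at 23.9, 29.9 and 42.2 CPM in the controls and at 40.21, 21.95 and 38.8 CPM in the knockouts. It was the 1 gene of the 36 with a difference above 0 (0.07, SE 0.28, adjusted p = 0.858), and that sign turned under upper-quartile scaling and without control 1, knockout 1 or knockout 3 (-0.04 to -0.10). Both genes had groups that overlapped. The log2 ratio of Rrm2 to Rrm1 within a library was -1.47, -1.47 and -0.90 in the controls and -0.93, -1.57 and -0.57 in the knockouts, with no separation of the groups (difference 0.26, exact permutation p = 0.7).

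**Figure D3:**
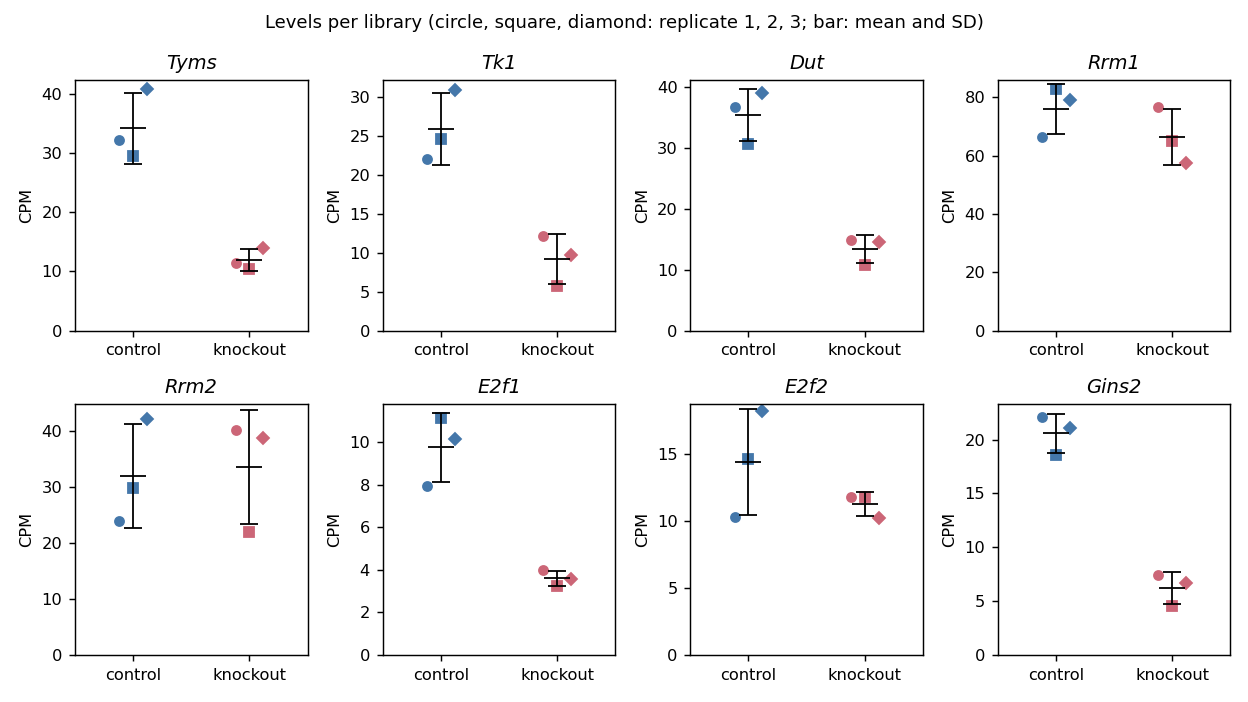
Level in CPM (vertical axis, from 0) of 8 replication genes in control and knockout libraries. Points are libraries, with circle, square and diamond for replicates 1, 2 and 3, and the bars are mean and SD (n = 3). Tyms, Tk1, Dut, E2f1 and Gins2 have groups that do not overlap, while those of Rrm1, Rrm2 and E2f2 do.

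Of the 3 genes that rebuild chromatin and its methylation behind the fork, 1 fell. Uhrf1, which brings the maintenance DNA methyltransferase to newly copied DNA, was at 22.8, 32.8 and 34.3 CPM in the controls and at 19.4, 8.34 and 11.1 CPM in the knockouts (-1.22, SE 0.31, adjusted p = 0.0204). Omitting control 2, control 3 or knockout 3 ended its call (adjusted p from 0.0519 to 0.0629). Chaf1b, a subunit of the chromatin assembly factor CAF-1, was at 9.22, 15.1 and 10.8 CPM against 9.13, 6.39 and 5.08 CPM. Its groups touched without overlapping, and its difference of -0.77 missed the threshold (adjusted p = 0.0565), while it passed by DESeq2 (adjusted p = 0.0274) and without knockout 1 (adjusted p = 0.0409). It also passed with upper-quartile scaling and with no filter on low counts. Chaf1a, the large subunit of CAF-1, was at 11.54 to 16.96 CPM against 10.2 to 14.4 CPM (-0.31, adjusted p = 0.259). Chaf1a shares 4648 exon bases with Ubxn6 on the opposite strand, whose difference was -0.02. The log2 ratio of Chaf1b to Chaf1a was lower in every knockout library (-0.658, -0.687 and -1.003) than in every control (-0.32, -0.17 and -0.46), a difference of -0.47 (exact permutation p = 0.1, the smallest that 3 against 3 can give, 0.3 after adjustment over the 6 ratios).

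Of the 4 genes of G1/S control, 2 fell. E2f1, an activating E2F factor (ENSMUSG00000027490, chromosome 2, 154559407 to 154569892, minus strand), was at 7.97, 11.2 and 10.2 CPM in the controls and at 3.98, 3.25 and 3.59 CPM in the knockouts. The knockouts lay close together at 36.9% of the control mean, and the difference was -1.44 (SE 0.20, adjusted p = 0.00283). E2f2, the related activator, had overlapping groups at 10.3, 14.7 and 18.2 CPM against 11.8, 11.8 and 10.3 CPM (-0.35, adjusted p = 0.221). Within libraries the log2 ratio of E2f2 to E2f1 was 0.38, 0.40 and 0.84 in the controls and 1.56, 1.86 and 1.51 in the knockouts. That ratio did not overlap between the groups, with a difference of 1.11 (exact permutation p = 0.1, adjusted 0.3).

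The cyclins E, which activate Cdk2 at the start of S phase, were both lower in every knockout than in every control. Ccne2 was at 18.4, 11.9 and 23.2 CPM in the controls and at 7.06, 7.61 and 9.26 CPM in the knockouts (-1.16, SE 0.25, adjusted p = 0.0109). It shares 609 exon bases with Ints8, whose difference was -0.02. Ccne1 was at 3.40, 4.62 and 4.99 CPM against 2.495, 1.536 and 3.339 CPM. Its difference of -0.82 (SE 0.32) missed the threshold (adjusted p = 0.0795) and passed without knockout 3 (adjusted p = 0.0392). The log2 ratio of Ccne2 to Ccne1 did not separate the groups (difference -0.25, exact permutation p = 0.7).

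**Figure D4:**
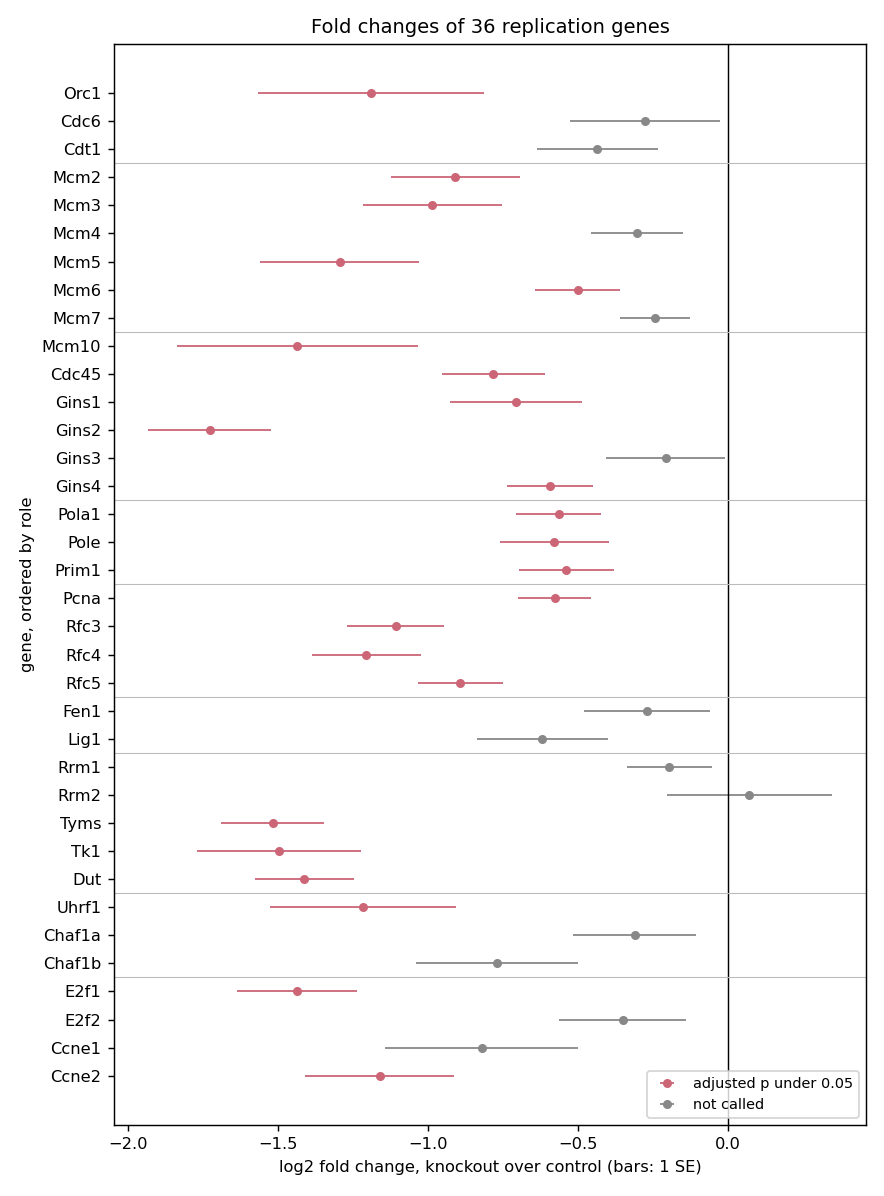
Log2 fold change of knockout over control (horizontal axis) for the 36 replication genes, ordered by role with lines between roles. Points are edgeR estimates and bars 1 SE, red where the adjusted p was under 0.05. The 23 red points run from -0.50 for Mcm6 to -1.73 for Gins2, and Rrm2 is the only point right of 0.

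The other genes of DNA replication were taken from a list of 75, of which 74 were tested and Pold4 was at 0 in every library. Of the 74, 36 fell (48.6%), 5 rose and 33 did not pass the test, and the median difference was -0.42. Of all genes tested, 18.8% fell and 17.4% rose, and the counts per role stand beside these shares. Named here are, in each role, the called gene with the lowest and the called gene with the highest difference, and every gene that rose. Among 9 further licensing genes 3 fell, from Gmnn (-1.33, SE 0.22, adjusted p = 0.00446), the inhibitor of Cdt1, to the origin recognition subunit Orc3 (-0.58, adjusted p = 0.00563). Gmnn was at 20.03, 14.06 and 22.44 CPM against 7.19, 6.32 and 8.93 CPM, a larger difference than that of its target Cdt1. The log2 ratio of Cdt1 to Gmnn was -0.86, -0.309 and -0.996 in the controls and 0.59, 0.17 and -0.36 in the knockouts, so that knockout 3 overlapped the controls (difference 0.85, exact permutation p = 0.2, adjusted 0.3). Among 10 firing and fork genes 5 fell, from Ticrr (-1.16, adjusted p = 0.0291), which helps to load Cdc45, to its partner Mtbp (-0.43, adjusted p = 0.0416). Both calls were weak: that of Ticrr ended on omission of control 2, control 3, knockout 2 or knockout 3 (adjusted p from 0.0726 to 0.0863), and that of Mtbp without any one library (adjusted p from 0.0793 to 0.115).

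Of 8 further polymerase and primase subunits tested, 6 fell, from Pole2 (-1.25, adjusted p = 0.00738) to Pole3 (-0.31). Pole2, a further subunit of the enzyme whose catalytic subunit is Pole, went from 17.4, 18.7 and 18.9 CPM to 8.42, 4.99 and 9.76 CPM. Among 9 clamp and clamp loader genes 5 fell, from Dscc1 (-1.99, adjusted p = 0.00304), a subunit of an alternative clamp loader, to Atad5 (-0.52), which unloads Pcna. Of 5 Okazaki fragment genes 2 fell, the nuclease Exo1 (-1.50, adjusted p = 0.0138) and the ribonuclease H2 subunit Rnaseh2b (-0.74, adjusted p = 0.00496). Of 9 replication chromatin genes 7 fell, from the remodeller Hells (-1.36, adjusted p = 0.00325) to the histone binder Rbbp7 (-0.31). The calls of Pole3 and Rbbp7 were lost without any one library (adjusted p from 0.0567 to 0.142 and from 0.0696 to 0.136), and that of Atad5 without any one other than knockout 1 (adjusted p from 0.0595 to 0.114).

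The nucleotide list of 9 held 3 genes that fell (33.3%) and 2 that rose. Dtymk, the kinase that acts on the product of Tyms and Tk1, went from 45.3, 37.8 and 52.1 CPM to 18.18, 17 and 17.64 CPM (-1.36, SE 0.14, adjusted p = 0.00127). Samhd1, which degrades deoxyribonucleotides, went the other way, from 40.2, 35.9 and 42.3 CPM to 109, 86.0 and 103 CPM (1.33, SE 0.13, adjusted p = 0.00109). The groups lay far apart for both genes. Ctps, an enzyme of CTP synthesis, rose by 0.47 (adjusted p = 0.0399), and lost the call under upper-quartile scaling and without any one library other than control 2 (adjusted p from 0.0636 to 0.111). Of 15 further G1/S genes 5 fell (33.3%), led by Ccna2, the cyclin of S phase and G2 (-1.34, adjusted p = 0.0151). The 3 that rose there were the pocket proteins Rb1 (0.52, adjusted p = 0.0155) and Rbl2 (0.44, adjusted p = 0.0432), and E2f4 (0.45, adjusted p = 0.0151), a partner of pocket proteins. In the nucleotide and G1/S lists the share that rose was near the 17.4% of all genes tested. Relatives of these genes fell: the pocket protein Rbl1 (-0.48, adjusted p = 0.0185), E2f5 (-0.61, adjusted p = 0.0220), likewise a partner of pocket proteins, and the repressor E2f6 (-0.63, adjusted p = 0.0116). These last 3 were named after their values were seen. The call of Rbl1 ended on omission of control 3 or knockout 2 (adjusted p = 0.0589 and 0.0569) and that of E2f6 on omission of control 3 (adjusted p = 0.0502). That of E2f5 ended on omission of control 1, control 3 or knockout 1 (adjusted p from 0.0553 to 0.0776). The calls of the risers Rb1, Rbl2 and E2f4 were lost under upper-quartile scaling (adjusted p = 0.053, 0.129 and 0.0566). That scaling lowered the median of all genes to -0.17. Without 1 library, Rbl2 lost its call in 5 cases, the exception being knockout 3 (adjusted p from 0.0699 to 0.127), and E2f4 without control 3 (adjusted p = 0.0534). Rbl2 was also not called with sex as a covariate (adjusted p = 0.0768). The number of the 74 genes that rose was 2 without control 3 and 3 without control 1, knockout 1 or knockout 2.

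For comparison, 23 of 25 genes of mitosis and the spindle fell (92.0%, beside 18.8% of all genes tested) and none rose. Their median difference was -1.27. At an unadjusted p under 0.05 all 25 were lower, and DESeq2 and limma-voom found 24 and 23 lower and none higher. Ndc80, a kinetochore protein, had the smallest p of this list (-1.71, SE 0.21, adjusted p = 0.00184). Mki67, the proliferation marker, went from 63.1, 89.6 and 125 CPM to 55.5, 25.3 and 31.6 CPM (-1.31, SE 0.34, adjusted p = 0.0223), and lost its call without control 2, control 3, knockout 2 or knockout 3 (adjusted p from 0.0548 to 0.0707) and with no filter on low counts. Among the 36 replication genes 12 had a difference below -1, and 6 a difference below that of Mki67. The log2 ratio of Mcm2 to Mki67 overlapped between the groups (difference 0.39, exact permutation p = 0.2, adjusted 0.3).

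Upstream of the E2F factors, the list of 12 D cyclins, their kinases and Cdk inhibitors had a median difference of 0.35. In it 6 genes rose and 1 fell, beside 17.4% of all genes tested that rose and 18.8% that fell. Ccnd3, a D cyclin, rose by 0.70 (adjusted p = 0.00287) and Ccnd1 by 0.52 (adjusted p = 0.0315). Their kinase Cdk4 fell, from 169, 179 and 180 CPM to 105, 82.7 and 116 CPM (-0.79, SE 0.14, adjusted p = 0.00623). The Cdk inhibitor Cdkn1a rose from 386, 361 and 338 CPM to 529, 604 and 683 CPM (0.74, SE 0.16, adjusted p = 0.0105). Cdkn1c, a relative of Cdkn1a, rose by 1.64 (SE 0.28, adjusted p = 0.00528) from levels under 2 CPM. Cdkn2a and Cdkn2b, inhibitors of the D cyclin kinases, rose by 2.65 (SE 0.67, adjusted p = 0.0191) and 0.69 (SE 0.23, adjusted p = 0.0487), Cdkn2a from 3, 2 and 17 counts to 39, 37 and 81 counts. Of these calls, Cdkn2a's was lost without control 1 (adjusted p = 0.0571). Ccnd1 and Cdkn2b lost theirs under upper-quartile scaling, Ccnd1 also without control 2, control 3, knockout 1 or knockout 2 (adjusted p from 0.0631 to 0.0989) and Cdkn2b also without control 1, control 2, knockout 1 or knockout 3 (adjusted p from 0.109 to 0.131). Cdkn2b was likewise not called by limma-voom or with a filter of 1 CPM.

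**Figure D5:**
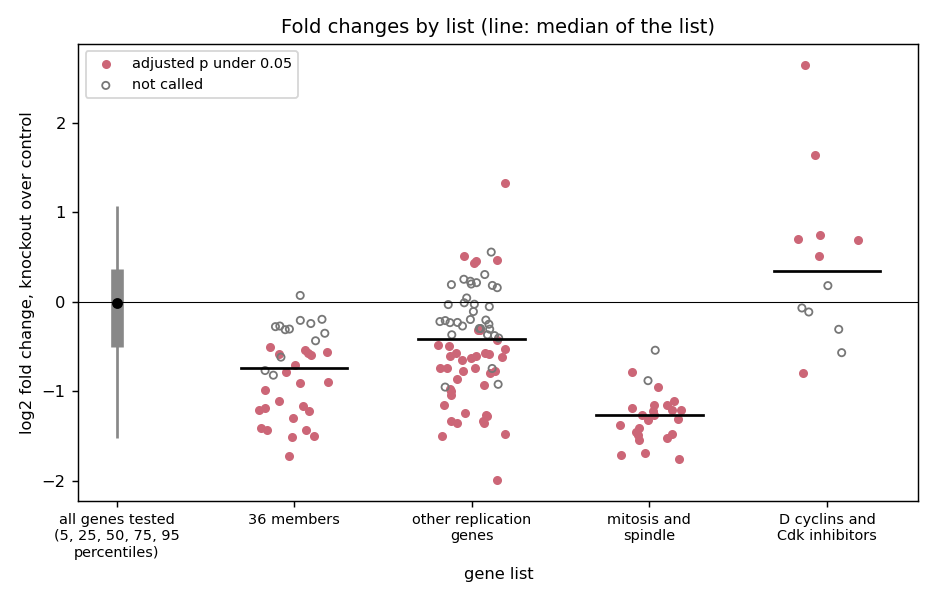
Log2 fold change of knockout over control (vertical axis) for each gene of 4 lists, filled where the adjusted p was under 0.05, with a line at the list's median. At the left, the percentiles of all genes tested. The medians are -0.74 for the 36 replication genes, -0.42 for the other replication genes, -1.27 for mitosis and 0.35 for D cyclins and Cdk inhibitors.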

How the data were processed

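RNA-seq libraries of keratinocytes from 3 control and 3 Lama3 knockout mice were compared. The authors deposited whole-number counts per gene, 1 column per library, with Ensembl gene numbers. The tools named are featureCounts 1.4.6, TopHat 1.3.3 and Cuffdiff 1.3.0 and the build GRCm38, per the submitters' processing notes. The annotation release and the use of strand are not given in the sources used here. Symbols, exon lengths and overlaps came from GENCODE M21, and promoters from RefSeq.

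The counts were tested with edgeR 4.0.16 (R 4.3.3), with TMM scaling, filterByExpr and a robust quasi-likelihood fit of the group, over all 15513 genes left by the filter. The fit was also run on simulated data, built from the means, library sizes and dispersions of the real fit. CPM are scaled by TMM factors, and SD are over 3 libraries. Ratios within a library, with 0.5 added to each count, were compared by a 2-sided exact permutation test over libraries, adjusted over 6 ratios. Alternatives were DESeq2 1.42.0, limma-voom (limma 3.58.1), other scalings and filters, a replicate block, sex as a covariate and each library left out.

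The 36 genes and the lists were chosen with earlier results of these data known. The 36 are all named. Of other lists, the lowest and highest called gene of each role and each riser are named, as are Ndc80 by its p, Mki67 and every called gene of the D cyclin list. Genes whose exons overlap those of the 36 were named where they hold many counts beside those of the gene they overlap. The mice are separate animals per the labels.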

Additional observations from a re-analysis of the deposited data

How the results depend on the processing

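Genes and lists were tested under 14 alternatives. The number of the 36 replication genes that fell was 14 to 22 with 1 library left out and 18 to 27 under the others, and none rose under any of the 14. Of the 23 genes that fell, 14 were called under all 14 alternatives. The difference of Rrm2 turned to -0.079 with upper-quartile scaling, and to -0.101, -0.068 and -0.037 on omission of control 1, knockout 1 and knockout 3, with 0.32 on omission of control 3. The cause was not tested. With upper-quartile scaling, 1 of the other replication genes rose in place of 5, and 1756 of all genes in place of 2693. The share of called genes that were higher was then 30.6% against 48.0%, and the median of all genes -0.17. With 1 library left out, 2 to 6 of the other replication genes rose, and of all genes 1714 to 2771 fell and 1586 to 2754 rose; these fits hold fewer samples. The list of D cyclins and Cdk inhibitors, for which the alternatives were chosen after seeing the data, had 2 genes that fell with upper-quartile scaling, with sex as a covariate and without knockout 2. The replicate numbers were not taken to pair the libraries. Deviations of same-numbered libraries from their group means correlated at -0.162, -0.0783 and 0.43, and control 1 correlated best with knockout 2 (0.419). These correlations cannot exclude pairing, because deviations from a mean of 3 libraries are not independent. With the replicate block, 18 of the 36 genes fell, the calls of Orc1, Mcm10, Gins1, Pole and Prim1 being lost, and 5123 genes were called in place of 5612. With no filter on low counts, Gins1 and Pole lost their calls. Of the other replication genes named, the replicate block ended the calls of Ticrr, Mtbp, Pole3, Atad5, Ctps, Rbbp7 and E2f5. Sex as a covariate ended those of Ticrr, Mtbp, Pole3, Rbbp7 and Rbl2, and no filter on low counts those of Mtbp, Pole3, Atad5 and Rbbp7. Differences near 0 of overlapping genes turned as well, under alternatives chosen after seeing the data, and none of these 4 genes was called there. With upper-quartile scaling Ufd1 was at -0.037 and Ap4m1 at -0.012. With no filter on low counts Ints8 was at 0.021 and Ubxn6 at 0.026, and with 1 library left out they ranged from -0.044 to 0.023 and from -0.095 to 0.163. Depth sets the counting error of low genes such as Orc1, which had 20 counts in knockout 2.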

Other observations

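Some complexes held genes with unequal differences that the comparisons above do not describe. Of the single-strand binding protein RPA, Rpa3 fell, from 40.01, 24.44 and 39.62 CPM in the controls to 10.83, 11.03 and 15.5 CPM in the knockouts (-1.48, SE 0.23, adjusted p = 0.00412). Rpa1 and Rpa2, the other subunits of RPA, each had a difference of -0.30 and did not pass the test (adjusted p = 0.115 and 0.138). Of the small subunits of polymerase epsilon, Pole4 fell from 66.4, 57.4 and 72.2 CPM to 31.7, 29.6 and 38.0 CPM (-0.98, SE 0.14, adjusted p = 0.0029), beside -0.31 for its histone-fold partner Pole3. Of polymerase delta, Pold1 fell (-0.49, adjusted p = 0.0238), while Pold2 (-0.05, adjusted p = 0.814) and Pold3 (-0.31, adjusted p = 0.0769) did not pass the test. The call of Pold1 ended on omission of control 2, control 3, knockout 1 or knockout 2 (adjusted p from 0.0699 to 0.0807). These genes were named after their values were seen, and the differences between subunits were not tested.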
